A study of Mus musculus with 12 samples.

Results

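The comparison of 21-month with 4-month wild-type mouse hearts was examined in the 6 wild-type arrays among the 12 of a microRNA array study. Its members are, by their labels, the 3 samples labelled WT at 21 months and the 3 labelled WT at 4 months. All mice, wild-type and mutant, were on the C57Bl/6J background, all were collected at ZT 6, which is 6 hours after lights on, and no treatment beyond collection is recorded. Ventricular tissue was snap frozen, and total RNA was extracted with the miRNeasy method and labelled with biotin by an Affymetrix procedure. The other 6 arrays came from hearts homozygous for the Clock delta 19 mutation, again 3 at 21 months and 3 at 4 months. They entered the fit to share its estimate of the spread and served as a second comparison of the same ages. The labels call the replicates biological.

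MicroRNAs are short RNAs that guide the silencing machinery to messenger RNAs with matching sites, which lowers translation or speeds decay of those messengers. Each is cut from a longer hairpin, the precursor, first in the nucleus and then in the cytoplasm, and the mature strand is kept in the silencing complex while most precursors are short-lived. In heart muscle, microRNAs are known to act on contractile protein genes, on growth of the muscle cell and on matrix production, processes that also change as the heart ages.

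The array carried probe sets for both forms. By the prefix of their miRBase accession, 1908 of the 3163 probe sets were for mature microRNAs and 1255 for precursors, with the precursor probe sets covering 1174 different accessions. Neither the deposited table nor the mouse gene and microRNA tables used here pair these accessions with names, since 0 of 3082 accessions were found there. Probe sets are therefore given by accession only, with at most 2 in each direction for each kind, and no sequence, position or function is attached to any of them. For the same reason the markers of heart muscle, vessel and blood cells could not be looked up, so the tissue label was not checked.

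Values were levels on a log scale taken as base 2, each relative to the probe set's own median over the 12 arrays. A value of 0 is thus that median, and 1 is a doubling above it if the base is 2. Absolute signal is lost by this step, so probe sets at background could not be set aside, and no level was compared between probe sets. Over mature probe sets the medians of the 6 wild-type arrays lay between -0.0022 and 0.013 at 21 months and between -0.013 and -0.0014 at 4 months. The correlation of such centred values between 2 hearts of the same group was at most 0.174 at 21 months and 0.0913 at 4 months. WT 4-month replicate 2 correlated at 0.048 and -0.095 with WT 4-month replicates 1 and 3. With Clock 4-month replicates 1, 2 and 3 it correlated at 0.071, 0.28 and 0.33, and the cause was not tested. Tissue RNA was measured in bulk, so fewer cells of a type and less RNA per cell cannot be told apart.

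At an adjusted p under 0.05 by limma, 1 mature probe set was called higher and 0 lower in old wild-type hearts. The called probe set was MIMAT0028056_st. Its level was 0.86, 0.95 and 0.74 in the 21-month hearts, against -0.68, -0.66 and -0.48 in the 4-month hearts. All 3 old hearts lay above all 3 young ones, with a gap of 1.22 between the groups, and replicates of each age lay close together. The difference was 1.45 (SE 0.20, 95% interval 1.0 to 1.90, n = 3 each), a 2.74-fold rise (limma, Benjamini-Hochberg adjusted p = 0.039 over 1908 probe sets). This call was 1 of 1908, or 0.0524% of mature probe sets. It was lost in 10 of the 12 fits that left out 1 array (adjusted p up to 0.255), and after quantile normalization (adjusted p = 0.0568), while its difference stayed between 1.40 and 1.52 over these removals.

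The mature probe set with the next smallest p was MIMAT0000679_st. It was at 1.07, 0.81 and 0.99 in the 21-month hearts, against -0.019, -0.11 and -0.10 in the 4-month hearts. The groups again did not overlap, and the old hearts stood 0.83 above the nearest young heart. The difference was 1.03 (SE 0.17, 95% interval 0.66 to 1.41), and it missed the threshold (limma, adjusted p = 0.0803). With array weights it passed (adjusted p = 0.0322), as it did with adjustment over the more variable probe sets only (adjusted p = 0.0401). It also passed when Clock 21-month replicate 2 or replicate 3 was left out (adjusted p = 0.0454 and 0.0154). In the other 10 removals of 1 array it missed the threshold, with an adjusted p of up to 0.263 without WT 21-month replicate 1, as it did when the less variable probe sets were left out before the fit (adjusted p = 0.213).

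No mature probe set was called lower at 21 months. At an unadjusted p under 0.05 there were 29 lower ones by limma, 1.52% of the 1908, and the smallest adjusted p among all lower ones was 0.363. MIMAT0004670_st had the smallest p in that direction. It was at -1.49, -0.87 and -0.34 in the 21-month hearts, against 0.19, 0.027 and 0.10 in the 4-month hearts. The old hearts spread over more than 1 unit, while the young ones lay within 0.2 of each other. The difference was -1.01 (SE 0.24, 95% interval -1.54 to -0.47; limma, adjusted p = 0.363), and without WT 21-month replicate 1 it was -0.71. MIMAT0027774_st came next, at -0.10, -1.03 and -0.65 in the 21-month hearts, against 0.80, 0.57 and 0.10 in the 4-month hearts. Its groups were separated by 0.20 only, and the difference was -1.09 (SE 0.28, 95% interval -1.70 to -0.48; limma, adjusted p = 0.363).

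**Figure D1:**
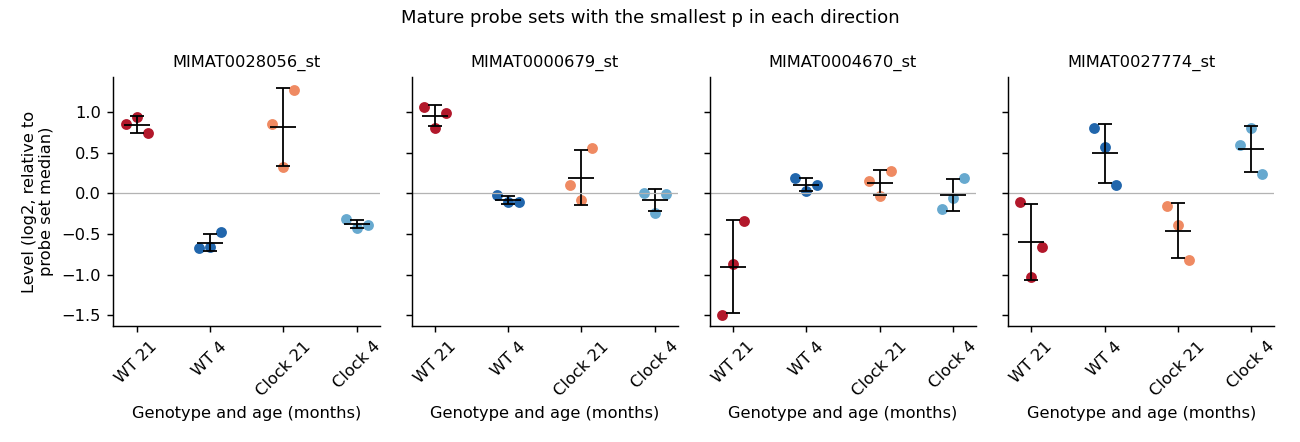
Level of the 4 mature probe sets with the smallest p in each direction (y axis, log2, 0 being the median of the 12 arrays) in WT and Clock hearts of 21 and 4 months (x axis). Points are single hearts and bars are mean ± SD (n = 3 each). For MIMAT0028056_st the 21-month hearts lie above the 4-month hearts in both genotypes, while MIMAT0004670_st is low in the WT 21-month hearts and near 0 in the other groups.

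The Clock hearts gave a second reading of these 4 probe sets at the same ages, from other animals. MIMAT0028056_st was at 0.85, 0.32 and 1.27 in Clock hearts of 21 months, against -0.32, -0.42 and -0.38 in Clock hearts of 4 months, a difference of 1.19 (SE 0.20; limma, adjusted p = 0.0563). The wild-type and Clock differences of this probe set differed by 0.26 (SE 0.29; limma interaction, adjusted p = 0.99). MIMAT0027774_st also had a difference of like size in Clock hearts, -1.0 (SE 0.28; limma, adjusted p = 0.264), and its Clock groups did not overlap either. The other pair had smaller differences in Clock hearts. For MIMAT0000679_st the Clock difference was 0.27 (SE 0.17), so that the wild-type difference was larger by 0.76 (SE 0.24; limma interaction, unadjusted p = 0.00925, adjusted p = 0.972). For MIMAT0004670_st the Clock difference was 0.15 (SE 0.24), and the wild-type minus the Clock difference was -1.16 (SE 0.34; limma interaction, unadjusted p = 0.00642, adjusted p = 0.972). Neither interaction passed, so these age differences were not shown to differ between genotypes.

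Below the threshold for single calls, more mature probe sets were higher than lower in old hearts. At an unadjusted p under 0.05, limma gave 78 higher (4.09% of 1908) and 29 lower (1.52%) at 21 months, 107 in all (5.61%). Without any age difference a share of about 0.05 would be expected, and the total lay near it. The median difference was 0.81 among the 78 and -0.64 among the 29, against 0.032 over all mature probe sets. The balance depended on the scaling. There were 75 higher and 36 lower after each array was centred on its median, 80 and 49 after quantile normalization of all probe sets, and 71 and 66 after quantile normalization of the mature ones alone. The median difference over all mature probe sets was 0.017 after quantile normalization of all probe sets and -0.0061 after that of the mature ones alone. Without WT 21-month replicate 1 the counts were 76 and 19.

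**Figure D2:**
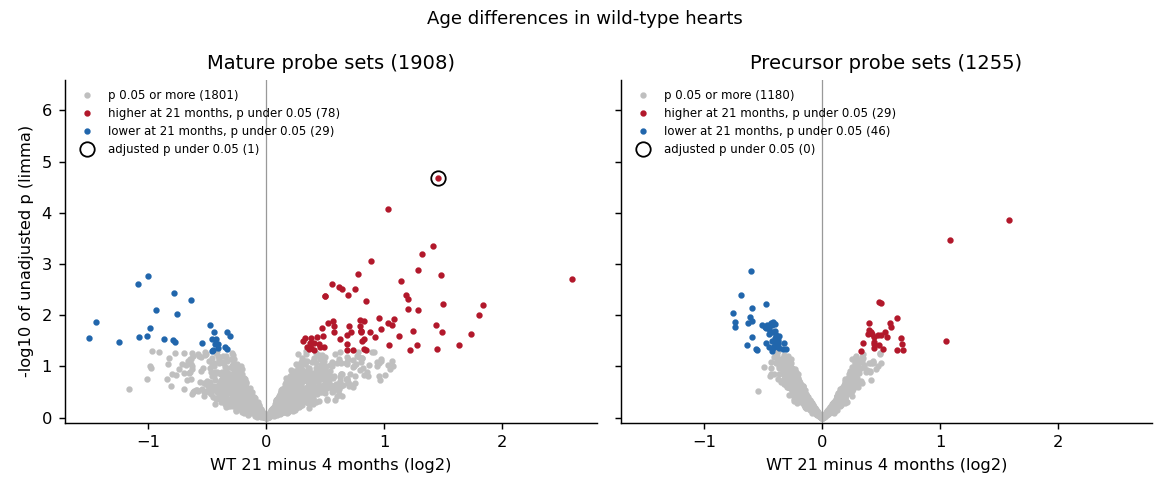
Each point is a probe set, with the 21 minus 4 month difference in wild-type hearts (x axis, log2) and the -log10 of its unadjusted limma p (y axis). The 1908 mature probe sets reach from -1.50 to 2.59 with 78 higher and 29 lower at p under 0.05, and the 1255 precursors reach from -0.75 to 1.59 with 29 higher and 46 lower.

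The spread of the mature differences was lopsided at its ends. The lowest 5% lay below -0.44 and the highest 5% above 0.68, and the extremes were -1.50 and 2.59. A difference of more than 2-fold was measured for 33 higher (1.73%) and 9 lower (0.472%) probe sets. Of these 42, 35 had an unadjusted p under 0.05 by limma and 28 had groups that did not overlap. Over all mature probe sets these shares were 5.61% and 11.9%. The 42 were chosen by the size of the same difference, so both counts follow in part from that choice. WT 21-month replicate 2 was the heart farthest from the 12-array median for 13 of the 42 and WT 4-month replicate 2 for 10. When 1 array was left out, the higher count lay between 33 and 54, and was 54 without WT 21-month replicate 3. The lower count was 6 without WT 21-month replicate 1, its lowest, and it was 23 when WT 4-month replicate 3 was left out, its highest. After quantile normalization of all probe sets the counts were 28 higher and 17 lower.

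Over all mature probe sets, old and young hearts did not overlap for 137 higher (7.18%) and 90 lower (4.72%), 11.9% in all. With 3 against 3 and no age difference, a share of about 0.10 would be expected, and the total lay near it. For 1455 mature probe sets (76.3%) the 95% interval lay within a 2-fold change up or down. Its median half-width was 0.466. For 2 probe sets it lay wholly above a 2-fold rise, and for 0 wholly below a 2-fold fall. Probe sets at background may be among those counted, so none of these is a share of expressed microRNAs.

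Single hearts contributed unequally. Among the 6 wild-type hearts, WT 21-month replicate 2 held the highest value of a mature probe set most often, for 386 of the 1908 (20.2%). WT 4-month replicate 2 held the lowest value most often, for 410 (21.5%). The other 2 old hearts were highest for 340 and 284 probe sets, and the other 2 young hearts were lowest for 323 and 319. WT 21-month replicate 2 had 63 mature probe sets above 1, against 24 to 34 in the young hearts. The other old hearts had 36 and 26. Below -1, WT 21-month replicate 2 had 9, the other old hearts 18 and 15, and the young hearts 20 to 38. The SD of all mature values was 0.400 in WT 21-month replicate 2 and 0.398 in WT 4-month replicate 2. In the other wild-type hearts it was 0.333 to 0.377, and the part of this spread in the counts was not tested. The median within-group SD was 0.214 at 21 months and 0.216 at 4 months, and the SD was larger at 21 months for 48.7% of mature probe sets.

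The Clock hearts share no array with the wild-type difference, and the direction of their age differences was read for the probe sets with an unadjusted p under 0.05 in wild type. Of the 78 higher in old wild-type hearts, 59 (75.6%) were also higher in old Clock hearts, where 58.2% of all mature probe sets were higher. Of the 29 lower in old wild-type hearts, 16 (55.2%) were also lower in old Clock hearts, against 41.8% of all. The first share was 60.5% when WT 4-month replicate 2 was left out, close to the 58.2% of all probe sets, and lay between 66.2% and 80.2% in the other removals. The second ranged from 42.1%, without WT 21-month replicate 1, to 72.0%, without WT 21-month replicate 2. The median Clock difference was 0.28 for the 78 and -0.076 for the 29, against 0.049 for all. Of the 42 probe sets with a difference over 2-fold in wild type, 35 (83.3%) had the same direction in Clock, 29 of the 33 higher and 6 of the 9 lower, and this share was 66.0% without WT 4-month replicate 2. A difference over 2-fold in both genotypes was measured for 12 higher and 5 lower probe sets.

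**Figure D3:**
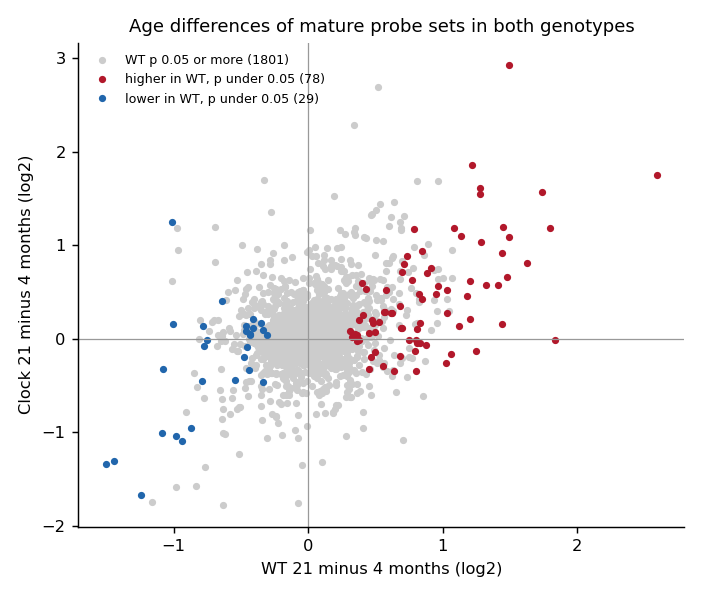
Age difference of each of the 1908 mature probe sets in wild-type hearts (x axis) and in Clock hearts (y axis), both 21 minus 4 months on the log2 scale. Red and blue points had an unadjusted p under 0.05 in wild type, and 59 of the 78 red points lie above 0 on the Clock axis, as do 58.2% of all points.

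Over the Clock arrays, the 78 probe sets had median levels of 0.046, -0.028 and 0.26 at 21 months, against -0.060, -0.15 and -0.24 at 4 months. Clock 21-month replicate 3 was the highest, and every old Clock heart lay above every young one. The medians of all mature probe sets had that order too, at 0.0047, 0.0067 and 0.030 in old Clock hearts, against 0, -0.0092 and -0.020 in young Clock hearts. These gaps were smaller than in the wild-type hearts that chose the probe sets, where the medians were 0.48, 0.53 and 0.28 at 21 months, against -0.27, -0.38 and -0.31 at 4 months. The 29 lower ones had medians of -0.0076, -0.15 and -0.022 in old Clock hearts, against 0.047, 0.047 and 0.075 in young Clock hearts. In a test of the difference itself, 0 of 1908 mature probe sets were called for an age difference that differed between the genotypes (limma interaction, smallest adjusted p = 0.538, with 80, or 4.19%, at an unadjusted p under 0.05). Of the 107 with an unadjusted p under 0.05 in wild type, 22 were among those 80. The interaction contains the wild-type difference that chose the 107, so a share above 4.19% was built in and nothing is read from it.

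Accession numbers are given in the order of registration, so they separate microRNAs entered early from those entered late. Among the 204 mature probe sets with the lowest numbers, 121 to 904, 5 (2.45%) had a higher and 6 (2.94%) a lower level with p unadjusted and under 0.05. Among the 644 with the highest numbers, 27104 to 31427, 35 were higher (5.43%) and 9 lower (1.40%). This block, 644 of the 1908 mature probe sets, held 18 of the 33 probe sets that were over 2-fold higher. The called MIMAT0028056_st belongs to it. Over all mature probe sets, 4.09% were higher and 1.52% lower at that p, and 1.73% were over 2-fold higher. The block from 1076 to 4943 had 15 higher (4.29%) and 6 lower (1.71%) of 350. That block held 5 of the 9 probe sets over 2-fold lower. The block from 10560 to 19356 had 14 higher (3.65%) and 1 lower (0.26%) of 384. The block from 20367 to 26642 had 4 higher (1.88%) and 7 lower (3.29%) of 213. It had 10 higher and 3 lower without WT 21-month replicate 1, and 7 higher and 5 lower when only the 6 wild-type arrays were fitted. In the block from 5291 to 9460, 5 of 113 were higher (4.42%), and 7 with array weights, when the latest block had 38 of 644. Lower counts in single blocks moved with the processing, to 20 in the latest block after quantile normalization and to 12 in the block from 10560 to 19356 without WT 4-month replicate 3. The median SD over the 12 arrays was 0.225 in the earliest block and 0.287 in the latest, and the part of this spread in the counts was not tested.

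**Figure D4:**
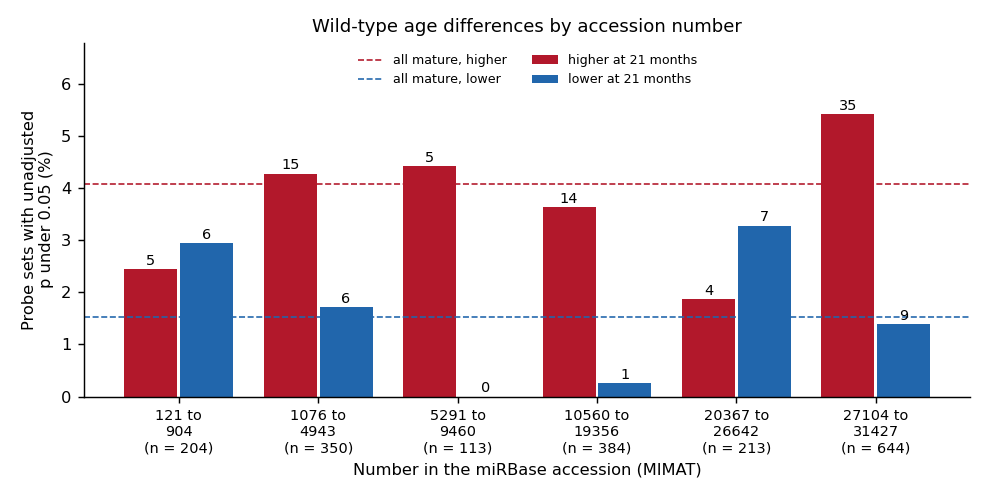
Percent of mature probe sets with an unadjusted p under 0.05 in the wild-type comparison (y axis), higher (red) or lower (blue) at 21 months, in 6 ranges of the number in the miRBase accession (x axis). Numbers above bars are counts, and dashed lines are the shares over all mature probe sets, 4.09% higher and 1.52% lower. The range with the highest numbers has 5.43% higher and 1.40% lower, and the order of the ranges is not the same under every setting.

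Precursors had smaller age differences and also a smaller spread between hearts of a group. Their median within-group SD was 0.173 at 21 months and 0.181 at 4 months, against 0.214 and 0.216 for mature probe sets. Whether the smaller differences go with a weaker signal was not tested. Of the precursor probe sets, 0 of 1255 were called in either direction (limma, smallest adjusted p = 0.174). With p unadjusted and under 0.05 there were 29 higher ones (2.31%) and 46 lower ones (3.67%), 75 in all (5.98%). Old and young hearts did not overlap for 60 higher (4.78%) and 77 lower (6.14%), 10.9% in all. Without any age difference, shares of about 0.05 and 0.10 would be expected for these counts, and both totals lay near them. A difference over 2-fold was measured for 3 higher (0.239%) and 0 lower precursors. The 95% interval excluded a 2-fold change for 1223 of them (97.5%), with a median half-width of 0.367. The balance of precursors moved with scaling, to 29 higher and 53 lower after quantile normalization of all probe sets and to 37 and 43 after quantile normalization of the precursors alone. It also rested on single hearts, with 36 higher and 34 lower without WT 21-month replicate 1, and 14 higher and 41 lower without WT 4-month replicate 1.

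The precursor with the smallest p was measured by 2 probe sets. MI0014103_st was at 0.62, 1.98 and 1.26 in the 21-month hearts, against -0.57, 0.048 and -0.38 in the 4-month hearts. MI0014103_x_st was at 0.59, 0.95 and 0.81 in the 21-month hearts, against -0.51, 0.023 and -0.40 in the 4-month hearts. In both probe sets every old heart lay above every young heart, by 0.57, and WT 21-month replicate 2 was the highest. The differences were 1.59 (SE 0.32, 95% interval 0.91 to 2.27; limma, adjusted p = 0.174) and 1.08 (SE 0.24, 95% interval 0.57 to 1.59; adjusted p = 0.211). MI0014103_st passed when WT 21-month replicate 1 was left out (limma, adjusted p = 0.0232) and when Clock 21-month replicate 2 was (adjusted p = 0.0297). Without WT 21-month replicate 2 its difference was 1.24 and it missed the threshold (limma, adjusted p = 0.769). MI0014103_x_st passed when Clock 21-month replicate 2 was left out (limma, adjusted p = 0.0398) and when replicate 3 was (adjusted p = 0.0332). In Clock hearts MI0014103_st was at 1.35, -0.048 and 0.94 at 21 months, against -0.20, -0.16 and -0.14 at 4 months. There MI0014103_x_st was at 0.18, -0.32 and 0.92 at 21 months, against -0.23, -0.023 and -0.19 at 4 months. The Clock groups overlapped for this probe set and not for the other, with differences of 0.41 (SE 0.24; limma, adjusted p = 0.68) and 0.92 (SE 0.32; adjusted p = 0.371).

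Lower precursors differed by less. MI0000763_st was at -0.15, -0.37 and -0.38 in the 21-month hearts, against 0.27, 0.43 and 0.20 in the 4-month hearts. All old hearts lay below all young ones, with a difference of -0.60 (SE 0.16, 95% interval -0.93 to -0.27; limma, adjusted p = 0.577). Its Clock difference was 0.11 (SE 0.16; limma interaction with wild type, unadjusted p = 0.0051, adjusted p = 0.568). MI0022879_st was at -0.16, -0.27 and -0.28 in the 21-month hearts, against 0.45, 0.95 and -0.048 in the 4-month hearts. The young hearts spread over 1 unit, and the difference of -0.69 (SE 0.21; limma, adjusted p = 0.80) became -0.44 without WT 4-month replicate 2.

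**Figure D5:**
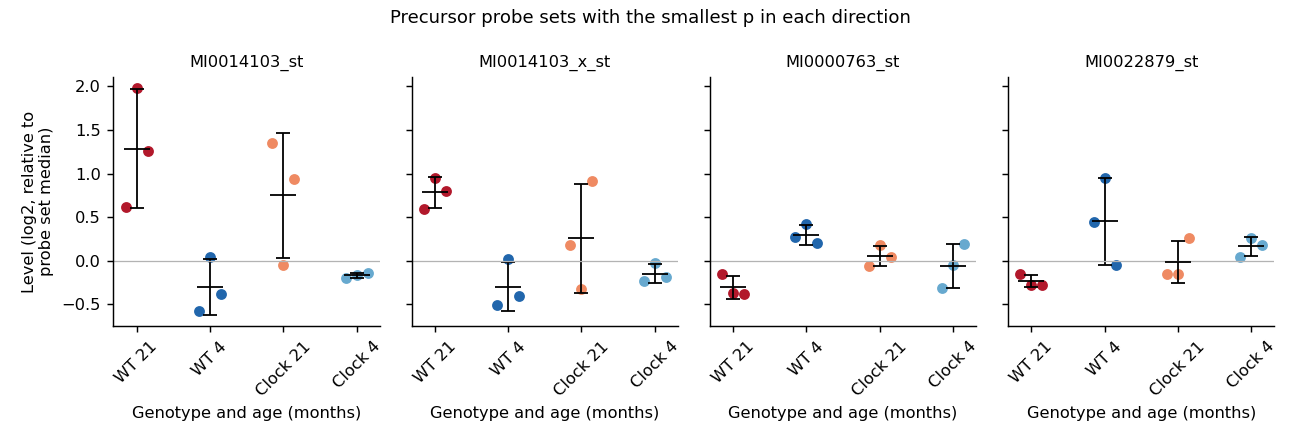
Level of the 4 precursor probe sets with the smallest p in each direction (y axis, log2, 0 being the median of the 12 arrays) in WT and Clock hearts of 21 and 4 months (x axis). Points are single hearts and bars are mean ± SD (n = 3 each). Both probe sets of MI0014103 are higher in every WT heart of 21 months than in every WT heart of 4 months.

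Some precursors were read by more than 1 probe set. For 75 accessions there was both a probe set with the plain suffix and one with the suffix x. Their age differences had the same direction for 58 of the 75 and correlated with r = 0.88 across accessions, which are not independent replicates. Both probe sets of a pair read the same hairpin on the same 12 arrays and may share probes, so their likeness is a description and no measure of the array's precision. Without the MI0014103 pair r was 0.81. The median gap between both differences of an accession was 0.059, against a median size of difference of 0.116. At an unadjusted limma p under 0.05 there were 6 of the 75 by the plain probe set and 3 by the other, and 2 by both. The share over all precursor probe sets was 5.98%, and these small counts are not read as a difference from it.

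In Clock hearts, 17 of the 29 precursors higher in old wild-type hearts were also higher (58.6%), against 45.9% of all precursors. Of the 46 lower ones, 33 were also lower (71.7%), against 54.1% of all. The first share ranged from 43.3%, without WT 21-month replicate 2, to 64.3% in the removals, and the second from 55.9%, without WT 21-month replicate 1, to 76.1%. At an unadjusted limma p under 0.05 in both genotypes, 2 of the 1255 precursors were higher in both, 3 were lower in both and 6 had opposite directions. Of the 1908 mature probe sets, 20 were higher in both, 8 lower in both and 2 opposite. Over all precursors, the wild-type and Clock differences correlated with r = 0.12 (Spearman rho 0.089). Over all mature probe sets r was 0.38 (Spearman rho 0.24). No precursor was called for an age difference that differed between genotypes (limma interaction, 0 of 1255, smallest adjusted p = 0.516, with 63, or 5.02%, at an unadjusted p under 0.05).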

How the data were processed

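The deposited values, taken as log2, cover 3163 probe sets on each of 12 arrays. The authors' values have a median of 0 over the 12 arrays in all 3163 probe sets (tolerance 1e-06), so each was expressed relative to its own median. Log base, background correction and normalization between arrays: not given in the sources used here. Another base would change folds but not tests. No filter on low signal was possible.

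In limma, group means were fitted over all 12 arrays (version 3.58.1, R 4.3.3), separately for mature and precursor probe sets, with 8 residual degrees of freedom and prior degrees of freedom of 2.82 and 8.44. Benjamini-Hochberg adjustment ran over all probe sets of a kind, and an adjusted p under 0.05 was a call. The script was tested on simulated data. Precision rests on 3 arrays per group and on a spread estimated over all 12 arrays. With 3 against 3, an exact permutation test of single values cannot go below 0.10 and was not used. Probe sets named are the calls, then the 2 with the smallest p in each direction. The comparison, the rule, the accession ranges and the microRNA lists were chosen with earlier results of these data known. The counts by accession range, by heart, by duplicate probe set and by direction in Clock were added after the data were seen and carry no test. The lists need names and were not used. Alternatives were other scalings, array weights, a replicate block, the wild-type arrays alone, joint adjustment, an SD filter, a threshold of 0.10, robust variances and leaving out each array.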

Additional observations from a re-analysis of the deposited data

How the results depend on the processing

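The count of 1 mature call became 0 after quantile normalization of all probe sets or of mature ones alone, with the replicate block, and with an SD filter set before the fit. It became 2 with array weights, with a threshold of 0.10, or when p was adjusted over the probe sets with an SD above the median after a fit over all. Leaving out each array gave 0 to 2, and the single call without WT 4-month replicate 1 or 2 was another probe set than MIMAT0028056_st. The 29 lower mature probe sets at an unadjusted p under 0.05 became 49 and 66 after these quantile normalizations, 45 with array weights and 17 with the SD filter before the fit, and 19 to 42 in the removals. The 78 higher ones gave 68 to 87 in the removals. Precursor calls were 0 to 2 in the removals, their higher count 14 to 36 and their lower count 34 to 52, and the interaction gave 0 to 1 precursor calls (1 without WT 4-month replicate 2, adjusted p = 0.0479) and 0 mature calls. With the SD filter before the fit, precursors gave 3 calls and 2 interaction calls, with 18 higher and 16 lower. That filter keeps only large variances, and the prior degrees of freedom became infinite for precursors, so single variances were ignored by construction. Filtering before the fit was run first, and adjusting after a fit over all (2 mature and 0 precursor calls) was chosen after those values had been seen. Separate quantile normalization and averaging the probe sets of an accession, which gave 0 precursor calls, were also chosen after seeing the data. No named difference changed sign under any alternative. With the replicate block MIMAT0028056_st had an adjusted p of 0.0872. Replicate numbers did not pair the hearts, with correlations of 0.0267, 0.0514 and -0.055 between same-numbered deviations. For MIMAT0028056_st the adjusted p ranged from 0.0025 to 0.255 in the removals. The cause of these changes was not tested. Other settings for the microRNA lists were not run, since the lists could not be matched. Signal over background is unknown, so microRNAs at background could not be told from measured ones.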
